A study of Mus musculus with 7 samples.

Results

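AP-1 is a family of dimeric transcription factors, and transcripts of 10 of its genes (Fos, Fosb, Fosl1, Fosl2, Jun, Junb, Jund, Batf, Atf3 and Maff) were followed in group 2 innate lymphoid cells (ILC2s) of the mouse heart. The genes were picked by symbol and not by a cut on their measured values, although earlier results of these data were known. All 10 were among the 55335 identifiers of the deposited tables, and all 10 passed the low-count filter that kept 17015 genes. The cells were sorted as CD45+ Lineage- ST2+ cells, and bulk RNA was measured in 3 libraries of naive hearts and in 4 libraries of cardiac allografts. The allografts came from the Balb/C to C57BL/6 (B6) heart transplant model, which develops acute rejection, and were taken 7 days after transplantation. The design text describes mechanical and enzymatic dissociation for the allografts. The labels put the same time on the naive samples, give no genotype for either group, and give neither the strain of the naive hearts nor the sex or age of any animal. Each library pooled cells of several hearts, so the pools are the replicates and not the animals, and p-values measure the spread between pools.

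AP-1 proteins carry a basic region that contacts DNA and a leucine zipper that joins them in pairs. Fos proteins pair with Jun proteins, while Jun proteins can also pair with one another, and the dimers bind the phorbol ester response element TGACTCA or the cyclic AMP response element TGACGTCA. In lymphocytes the family is induced within minutes of activation through MAP kinases and acts on cytokine genes together with NFAT and IRF factors. Fos, Fosb, Jun, Junb and Atf3 are immediate early genes, whose transcripts appear without new protein synthesis and decay quickly.

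Start regions are shown for the 7 members with a match to the cyclic AMP response element TGACGTCA, its variant TGACATCA or its core TGACG. They are the bases just upstream of the RefSeq transcript start on build GRCm38.p6, 5′ to 3′ on the gene's strand, with matches to the searched motifs in capitals. The windows are chr12:85473770-85473889 (plus strand) for Fos, chr7:19310046-19310165 (minus) for Fosb, chr4:95052223-95052342 (minus) for Jun, chr8:84978749-84978868 (minus) for Junb, chr12:85686600-85686668 (plus) for Batf, chr1:191183334-191183453 (minus) for Atf3 and chr15:79347400-79347519 (plus) for the second of 3 Maff entries. The Batf window stops where another annotation already places an exon.
Fos: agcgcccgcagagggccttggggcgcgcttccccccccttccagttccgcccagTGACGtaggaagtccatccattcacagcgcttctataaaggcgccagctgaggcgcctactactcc
Fosb: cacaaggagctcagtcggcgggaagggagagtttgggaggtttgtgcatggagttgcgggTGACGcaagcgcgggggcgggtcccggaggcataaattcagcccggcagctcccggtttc
Jun: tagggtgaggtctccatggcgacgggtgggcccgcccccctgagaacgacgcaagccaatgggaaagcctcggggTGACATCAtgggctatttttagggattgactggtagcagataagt
Junb: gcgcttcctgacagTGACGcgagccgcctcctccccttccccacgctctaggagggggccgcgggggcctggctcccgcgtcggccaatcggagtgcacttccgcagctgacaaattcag
Batf: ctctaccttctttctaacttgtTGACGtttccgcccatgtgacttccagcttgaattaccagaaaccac
Atf3: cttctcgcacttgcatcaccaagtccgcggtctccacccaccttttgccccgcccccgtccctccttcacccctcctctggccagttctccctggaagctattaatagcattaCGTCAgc
Maff: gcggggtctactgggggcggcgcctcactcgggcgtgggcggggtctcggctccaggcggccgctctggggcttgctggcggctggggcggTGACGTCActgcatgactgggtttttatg

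RefSeq entries matched 9 of the 10 members, with 11 start regions, and 250 upstream bases of each were searched on both strands. The core TGACG, which also lies inside TGACGTCA, occurred in at least 1 entry of 6 of the 9 members, and 17.8% of the 32851 RefSeq start regions of that length hold it. In Fos it lay at bases -66 to -62 and -129 to -125 from the start, in Fosb at -60 to -56, in Junb at -106 to -102, in Batf at -98 to -94, and in Atf3 on the other strand at -7 to -3. The full element TGACGTCA was found in 1 member, Maff, at -29 to -22 (1.55% of all start regions). The variant TGACATCA was found in Jun at -45 to -38 and at the same distance in the third Maff entry (2.93% of all). TGACTCA was found in 0 of the 9 members (4.46% of all). These matches describe letters and no measured binding.

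Total counts lay between 29107326 and 53044907 per library, so a count of 0 would have allowed at most 0.0566 to 0.103 CPM (counts-per-million, relative to the deposited total). A panel of 12 ILC2 markers that includes Il1rl1 (ST2) and Gata3 summed to between 11138 and 11864 CPM in the allografts and to 12273, 1166 and 15145 CPM in naive replicates 1 to 3. Naive replicate 2 stood apart: 10 kidney tubule genes summed to 10606 CPM there against 70.5 to 305 CPM in the other 6 libraries, 10 endothelial genes to 653 against 44.1 to 62.8 CPM, and mitochondrial transcripts took 26.5% of its counts against 2.04% to 3.11%. Its normalization factor by the trimmed mean of M values (TMM) was 0.724, and those of the other libraries lay between 1.02 and 1.07. Naive replicate 3 had the fewest detected genes, 13864 against 15820 to 21354. The T cell list of 10 genes summed to 30.4 to 1085 CPM in naive and 1065 to 1263 CPM in allograft libraries. In that list Cd3g was at 6.00 to 124 CPM in naive and 175 to 219 CPM in allograft libraries, Trbc2 at up to 363 and 383 to 481 CPM, and Trbc1 at 5.78 to 543 and 481 to 584 CPM, while Cd3e was at most 1.24 CPM in any library. The 10 B cell genes summed to 44.5 to 265 and 325 to 494 CPM. Sums in naive and then allograft libraries were 2.49 to 476 and 208 to 329 CPM for myeloid genes, 75.6 to 723 and 309 to 335 CPM for mast cell genes, 3.86 to 23.9 and 14.7 to 39.4 CPM for cardiomyocyte genes, 7.82 to 289 and 117 to 174 CPM for fibroblast genes, 809 to 3061 and 505 to 646 CPM for erythroid genes, and 5.99 to 718 and 280 to 718 CPM for lung epithelium genes. The fold change of each member is therefore also given without naive replicate 2 and without naive replicate 3. In pooled cells, fewer cells that express a gene and less RNA per cell cannot be told apart.

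Of the 10 AP-1 genes, 0 differed between allograft and naive libraries at an adjusted p under 0.05 (edgeR quasi-likelihood test, Benjamini-Hochberg adjustment over all genes), where 0.0353% of all genes tested did. At an unadjusted p under 0.05 there was 1, Atf3, against 10.3% of all genes. DESeq2 also called 0 of the 8 members for which it gave an adjusted p (2 at an unadjusted p under 0.05), and limma on log2(FPKM + 1) called 0 (0 unadjusted). The share of all genes past the adjusted threshold was 6.40% with DESeq2 (13.3% unadjusted), 0.447% with limma (13.0% unadjusted), 0.0235% with DESeq2 size factors, 0.0142% with no low-count filter, 0.0342% with a mean of at least 50 counts and 0.00% with the replicate block or without any 1 allograft. Leaving out naive replicates 1, 2 and 3 in turn put 5, 3 and 0 members at an unadjusted p under 0.05, where 17.6%, 20.2% and 16.7% of all genes lay, and 0 past the adjusted threshold, which 0.568%, 3.10% and 0.0372% of all genes passed. The fitted fold change was below 0 for 7 members and above 0 for 3, with a median of -0.61 on the log2 scale against -0.01 over all genes tested. Without naive replicate 3 this turned to 3 below and 7 above, with a median of 0.55 against 0.07 over all genes. Without naive replicate 2 it was 8 below and 2 above, with a median of -0.87 against 0.19. Batf was the only member whose 4 allograft values all lay above its 3 naive values, a pattern met by 12.5% of all genes tested, and 0 members showed the opposite (2.15% of all genes). With 1 naive library left out, the higher group was Batf alone without replicate 1 (28.5% of all genes) or replicate 2 (21.6%), and Batf, Jun, Junb, Jund and Maff without replicate 3 (22.5%). The opposite held for Fos and Atf3 without replicate 1 (6.69%), and for 0 members without replicate 2 (7.49%) or replicate 3 (7.21%). In TMM-scaled CPM the shares of all genes for higher and lower were 10.5% and 3.19% with all libraries, 22.5% and 9.73% without naive replicate 1, 21.4% and 7.65% without replicate 2, and 19.0% and 10.4% without replicate 3. There Jund left the first group without replicate 3 and joined Fos and Atf3 without replicate 1.

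**Figure D1:**
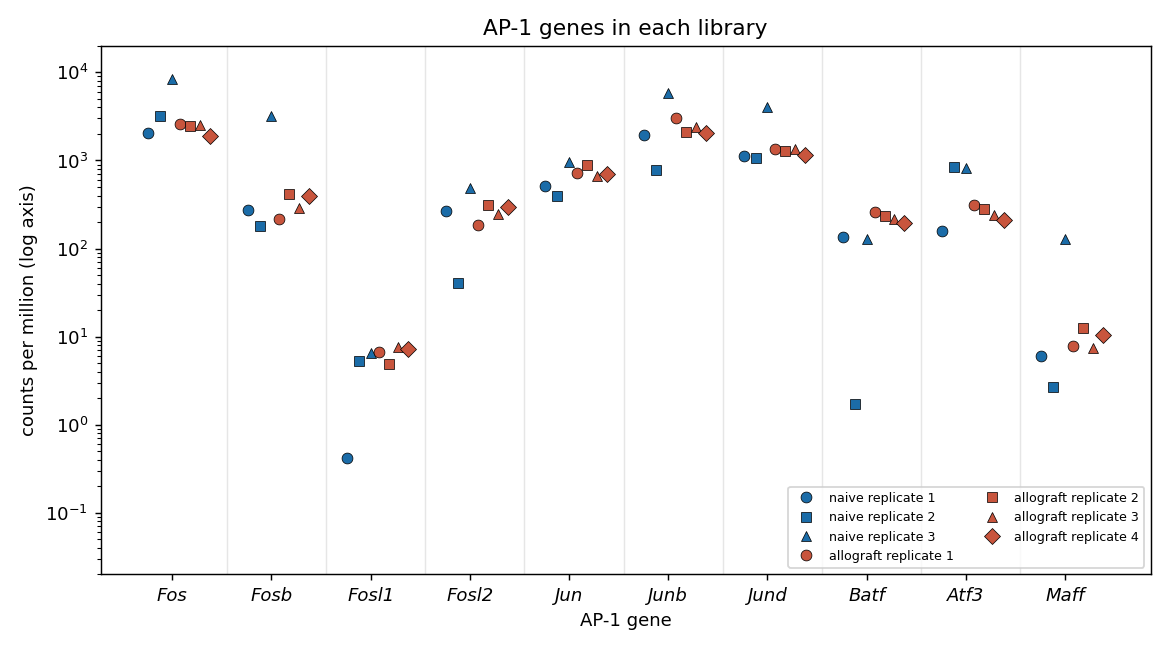
CPM (log axis) of the 10 AP-1 genes in each of the 7 libraries, 1 point per library, naive in blue and allograft in red. Naive replicate 3 is the highest of the 7 for 7 genes, naive replicate 2 is the lowest for 7, and Batf is the gene whose groups do not overlap.

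The Fos proteins are the heterodimer partners of Jun and cannot pair with themselves. For Fos (chr12:85473890-85477273), naive replicates 1 to 3 gave 2044, 3216 and 8410.2 CPM, against 2595, 2442, 2557 and 1917 CPM for allograft replicates 1 to 4. The allografts lay close together, naive replicates 2 and 3 lay above all of them, and naive replicate 1 lay inside their range. The log2 fold change, allograft over naive, was -1.13 (SE 0.561, adjusted p = 0.579). Leaving out naive replicate 2 gave -1.20 (0.508, 0.250), and leaving out naive replicate 3 gave -0.50 (0.453, 0.602). Without naive replicate 1 every allograft lay below every naive library for Fos, as for 6.69% of all genes tested, and the fold change was -1.51 (SE 0.427, adjusted p = 0.147).

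Fosb (chr7:19302696-19310051), a Fos relative that also yields a shortened splice form, showed 277, 179 and 3172 CPM across naive replicates 1 to 3, beside 215, 421, 288 and 399 CPM across the allografts. Naive replicate 3 was 7.54-fold above the next library, and the other 2 naive libraries overlapped with or lay below the allografts. The log2 fold change was -1.96 (SE 0.912, adjusted p = 0.537) and it turned to 0.30 (0.355, 0.704) without naive replicate 3, against -2.46 (0.805, 0.168) without naive replicate 2. Its direction thus rested on 1 library.

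Fosl2 (chr5:32135801-32157842), which encodes the Fos-related antigen Fra-2, was at 264, 41.1 and 492 CPM in naive and 186, 310.2, 245 and 298 CPM in allograft libraries. Its naive values lay both above and below the graft range, with replicate 2 at the bottom. Its log2 fold change of -0.11 (SE 0.630, adjusted p = 0.986) became -0.60 (0.333) without naive replicate 2 and 0.69 (0.598) without naive replicate 3. Fosl1 (chr19:5447547-5455946), which encodes Fra-1, had the lowest mean FPKM of the 10 in both groups, with 0.415, 5.25 and 6.49 CPM in naive and 6.66, 4.84, 7.59 and 7.28 CPM in allograft libraries. The first of these values stood on 22 counts. Its log2 fold change was 0.40 (SE 1.03, adjusted p = 0.956), with 0.86 (1.09, 0.734) and 0.70 (1.11, 0.781) on leaving out naive replicates 2 and 3. The annotation places exons of Ccdc85b on the opposite strand of Fosl1. Ccdc85b had 8.03, 31.7 and 63.8 CPM in naive and 31.4, 19.0, 12.3 and 20.8 CPM in allograft libraries, so it lay above Fosl1 in each of them. Whether its reads entered the Fosl1 counts was not tested.

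Jun proteins can form dimers on their own and with Fos, ATF and BATF partners. Jun (chr4:95049034-95052222), an intronless gene, had 507, 396 and 958 CPM in naive and 726, 899.5, 661 and 697 CPM in allograft libraries. Naive replicates 1 and 2 were under the graft range and replicate 3 was over it, and the 2.42-fold range of the naive values was the narrowest among the 10 members. Its fitted log2 fold change was 0.09 (SE 0.362, adjusted p = 0.974), with -0.03 (0.305, 0.973) once naive replicate 2 was left out and 0.46 (0.297, 0.459) once naive replicate 3 was. Its sign depended on the scaling, with -0.10 (adjusted p = 0.964) when DESeq2 size factors replaced TMM, which moved the median of all genes from -0.01 to -0.20.

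Junb (chr8:84974484-84978718), a Jun protein with weaker transactivation that is prominent in type 2 lymphocytes, had 1937, 771 and 5912 CPM in naive and 3004, 2088, 2379 and 2048 CPM in allograft libraries. Both naive replicates 1 and 2 lay below every allograft, and naive replicate 3 lay 1.97-fold above the highest of them. The log2 fold change was fitted at -0.37 (SE 0.624, adjusted p = 0.923), then 0.64 (0.414, 0.458) without naive replicate 3 and -0.78 (0.441, 0.353) without naive replicate 2. Exons of Prdx2 overlap Junb on the opposite strand. Prdx2 was between 136 and 228 CPM in all libraries, so it lay below Junb in each of them.

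Jund (chr8:70698949-70700616), the constitutively expressed Jun gene, also lacks introns. It had 1113, 1078 and 3998 CPM in naive and 1338, 1276, 1342 and 1149 CPM in allograft libraries. The allografts spanned 1.17-fold, the narrowest range of any member, and naive replicate 3 was 2.98-fold above the next library. For Jund the log2 fold change was -0.85 (SE 0.515, adjusted p = 0.685), and without naive replicate 3 it was -0.07 (0.323, 0.929), against -1.07 (0.461, 0.255) without naive replicate 2. Naive replicates 1 and 2 lay below all 4 allografts in CPM but not in TMM-scaled CPM. The antisense genes Junos at Jun and Gm11175 at Jund held at most 2.13 and 0.980 CPM in any library.

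Batf (chr12:85686669-85709087) encodes a small AP-1 protein without a transactivation domain that pairs with Jun proteins and works with IRF4 or IRF8 at composite sites. Its level was 134, 1.71 and 129 CPM across naive replicates 1 to 3, against 263, 234, 214 and 195 CPM in allograft replicates 1 to 4. The groups did not overlap, and the same held in TMM-scaled CPM, where 10.5% of all genes were higher in every allograft. Naive replicate 2, with 78 Batf counts, was far below the other naive libraries, and ILC2 markers as a whole were low there too; their part in the result was not tested. For Batf the fitted log2 fold change was 1.33 (SE 1.02, adjusted p = 0.760). Without naive replicate 2 it was smaller but better determined, at 0.74 (SE 0.218, adjusted p = 0.130), and the groups again did not overlap, as for 21.6% of all genes. Leaving out naive replicate 3 gave 1.74 (SE 1.27, adjusted p = 0.511). Batf was above 0 in 13 of 13 alternatives, with log2 fold changes from 0.74 to 2.52 and adjusted p values from 0.130 to 1.

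Atf3 (chr1:191170296-191218039), a stress-induced factor that represses transcription as a homodimer, had 157, 839 and 813 CPM in naive and 315, 284, 240 and 211 CPM in allograft libraries. Naive replicates 2 and 3 lay above every allograft, while naive replicate 1 lay below every allograft. The fitted log2 fold change of Atf3 was -1.52 (SE 0.623, unadjusted p = 0.0424, adjusted p = 0.455), and it stayed below 0 in 13 of 13 alternatives, from -1.99 to -0.91. Leaving out naive replicate 2, where Atf3 was highest, gave -0.95 (SE 0.585, unadjusted p = 0.152, adjusted p = 0.401), which ends the unadjusted call. Leaving out naive replicate 3 gave -1.40 (SE 0.709, unadjusted p = 0.0932, adjusted p = 0.366). The unadjusted p was also above 0.05 without any 1 allograft (0.0655 to 0.0984), with the replicate block (0.293) and with limma (0.173). It stayed under 0.05 with the DESeq2 test (0.0226), with DESeq2 size factors (0.0301) and without naive replicate 1 (0.000734). The same held with no low-count filter (0.0374) and with a mean of at least 50 counts (0.0452). Without naive replicate 1, Atf3 came nearest to the threshold, with -1.99 (SE 0.323, adjusted p = 0.0619). Atf3 was the only member that was highest in naive replicate 2, the library with the high kidney tubule sum of 10606 CPM; the part of that RNA in the Atf3 value was not tested.

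Maff (chr15:79346621-79359076) encodes a small Maf protein, which has a zipper but no transactivation domain. It had 5.96, 2.68 and 129 CPM in naive and 7.79, 12.4, 7.51 and 10.4 CPM in allograft libraries. Naive replicate 3 was 10.4-fold above the next library, and both other naive libraries lay below all 4 allografts. The log2 fold change of -2.34 (SE 1.15, adjusted p = 0.576) was the lowest of the 10 members, and it was -2.90 (0.972, 0.178) when naive replicate 2 was left out and 0.95 (0.573, 0.426) when naive replicate 3 was. DESeq2 gave no p for Maff or Fosb.

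**Figure D2:**
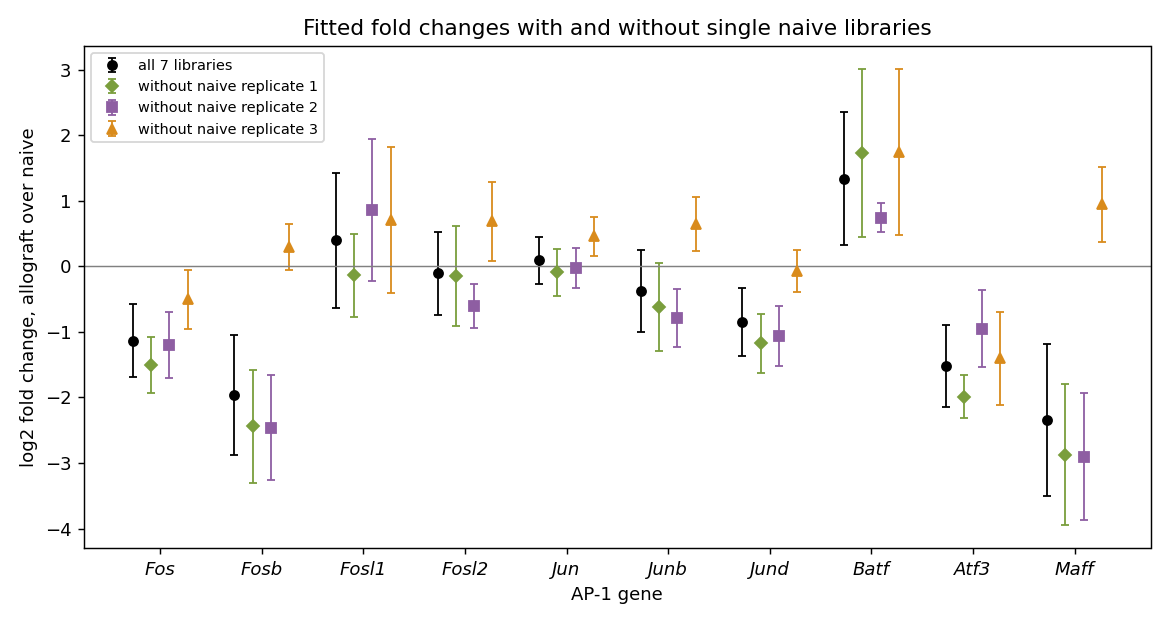
Fitted log2 fold change (allograft over naive, edgeR) of each AP-1 gene with its standard error as bars, over all 7 libraries and without 1 naive library at a time. Fosb, Fosl2, Junb and Maff lie below 0 with all libraries and above 0 without naive replicate 3. Batf lies above 0, and Atf3, Fos and Jund below 0, in all 4 fits, with Jund at -0.07 without naive replicate 3.

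Naive replicate 3 was the highest of the 7 libraries for 7 of the 10 members, where it was the highest for 21.5% of all genes tested. It was at least 2-fold above every other library for 4 members, Fos, Fosb, Jund and Maff, against 7.56% of all genes. The 10 members together held 2.40% of the counts of naive replicate 3, and between 0.644% and 0.866% of the counts of the other 6 libraries. Naive replicate 2 was the lowest library for 7 members, where it was the lowest for 34.3% of all genes. The median ratio of the highest to the lowest naive library was 9.83 over the 10 members and 4.76 over 10495 genes with a count in every library. In the allografts the same ratio was 1.48 for the members and 1.63 for all genes, and 7 members lay above the naive median of all genes while 3 lay above the allograft median.

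**Figure D3:**
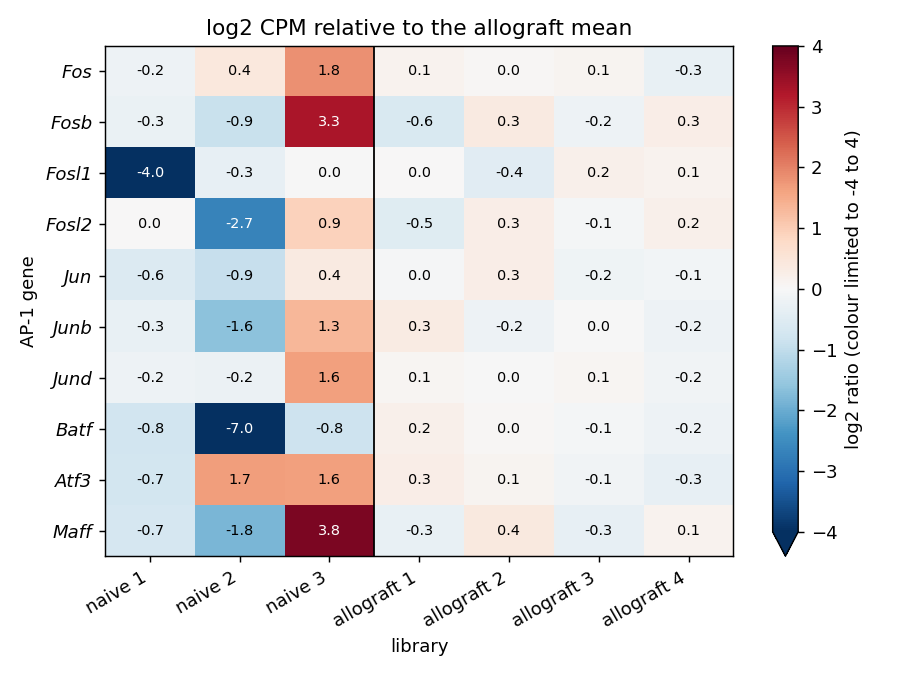
Each AP-1 gene's log2 CPM in each library relative to its mean CPM in the 4 allografts, printed in each cell and coloured from blue (lower) to red (higher). The allograft columns stay between -0.62 and 0.38, while naive replicate 3 reaches 3.76 for Maff and 3.26 for Fosb and naive replicate 2 reaches -7.05 for Batf.

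Levels between genes were compared per length, in the deposited FPKM. In the allografts Junb (892 ± 162 FPKM, SD, n = 4) and Fos (874 ± 114) led and did not differ beyond their ranges. Jund followed at 661 ± 46.0 FPKM, Jun at 202 ± 28.6, Batf at 139 ± 17.4, Atf3 at 105 ± 18.2, Fosb at 45.8 ± 13.4 and Fosl2 at 23.2 ± 5.13. Maff (3.16 ± 0.770) and Fosl1 (2.80 ± 0.528) came last. The ranges of Batf and Atf3 overlapped, as did those of Maff and Fosl1, and every other neighbouring pair below Fos was apart. In the naive libraries the order by mean was Fos (1724 ± 1267 FPKM, SD, n = 3), Junb (1103 ± 1030), Jund (1096 ± 882), Atf3 (251 ± 163), Jun (173 ± 81.1), Fosb (171 ± 240.2), Batf (55.2 ± 46.8), Fosl2 (24.2 ± 20.5), Maff (15.6 ± 24.5) and Fosl1 (1.78 ± 1.41). There the step from Jund to Atf3 was the only one at which neighbouring ranges were apart.

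Fos, Junb and Jund were the top 3 members in 6 of the 7 libraries and made up 79.8% to 86.1% of the summed FPKM of the 10 members. In naive replicate 2, Atf3 (357 FPKM) took the place of Junb (307 FPKM). Fos ranked between position 13 (naive replicate 3) and position 82 (allograft replicate 4) by FPKM among all 55335 identifiers. The ratio of Fos to Jun was 5.48 to 11.9 in the naive libraries and 3.69 to 5.26 in the allografts, and the groups did not overlap. The ratio of Batf to its partner Junb was 0.113, 0.00361 and 0.0358 in naive and 0.144 to 0.184 in allograft libraries, again without overlap. Of 6 ratios between members computed after the values had been seen, Batf to Fos was also without overlap, while Fosb to Fos, Junb to Jun and Atf3 to Jun overlapped. No ratio was tested or set against other gene pairs. Of 21 other basic leucine zipper genes, 0 had a higher mean FPKM in the allografts than Batf, 1 was above Atf3 and Fosb, 3 were above Fosl2, 12 were above Maff and 13 were above Fosl1.

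The pathway around AP-1 was described with 7 lists of 107 genes in all, of which 0 passed the adjusted threshold (edgeR, 0.0353% of all genes), 11 had an unadjusted p under 0.05 (10.3% of all genes), and 53 had a fold change above 0 and 54 below. DESeq2 called 6 of them, Irf4 and Irf8 as higher and Egr1, Rhob, Socs3 and Ppp1r15a as lower, where it called 6.40% of all genes. The limma fit on log2(FPKM + 1) called Irf4 and Dusp4 as higher, where it called 0.447% of all genes. The 8 partners at composite sites (IRF, NFAT, RUNX and ETS factors) had a median log2 fold change of 0.96. Of these, 8 were above 0, as were 8408 of the 17015 genes tested, and 4 had every allograft above every naive library (12.5% of all genes). Naive replicate 2 was the lowest library for 5 of the 8, where it was the lowest for 34.3% of all genes. Without naive replicate 2 the median was 0.54, and Ets1 turned from 0.38 to -0.19. Without naive replicate 3 the median was 1.73. In this list Irf8, which joins Batf at composite sites, had 10.6, 15.8 and 25.5 CPM in naive and 89.4, 84.2, 72.1 and 93.3 CPM in allograft libraries. Every allograft was higher, and the log2 fold change was 2.07 (SE 0.408, adjusted p = 0.144), or 2.17 (adjusted p = 0.0570) without naive replicate 2. Irf8 is also expressed by B cells and dendritic cells. The sums of 10 B cell genes were 44.5 to 265 CPM in naive and 325 to 494 CPM in allograft libraries. Ighm alone gave 226 to 377 CPM of the allograft sums. Not every gene followed its sum: Cd79b was at 117 CPM in naive replicate 1 and at most 47.7 CPM in the allografts. The sums of 10 dendritic cell genes were 44.6 to 142 and 193 to 225 CPM. That list itself holds Irf8, at 72.1 to 93.3 CPM in the allografts, so its sum is not independent of the Irf8 values. The part of either cell type in the Irf8 result was not tested.

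The 22 other early response genes had a median log2 fold change of -0.36, with 9 above and 13 below 0, and medians of -0.75 without naive replicate 2 and 0.73 without naive replicate 3. Naive replicate 3 was the highest library for 16 of the 22, and their CPM summed to 39482 there against 6645 to 24991 in the other libraries. Egr1, a zinc finger factor induced by the same kinases as Fos, had 153, 894 and 501 CPM in naive and 107, 118, 94.7 and 134 CPM in allograft libraries. Every allograft was lower, and the log2 fold change was -2.56 (SE 0.656, adjusted p = 0.197). It was -1.59 (adjusted p = 0.121) without naive replicate 2, which held its highest value, and -2.69 (adjusted p = 0.169) without naive replicate 3. The 11 negative regulators include phosphatases and RNA-binding proteins that shut the pathway down. Their median was -0.14, with 3 above and 8 below 0, and it was -0.60 and 0.57 on leaving out naive replicates 2 and 3. Their lead gene Dusp2, a nuclear MAP kinase phosphatase, had 31.8, 17.8 and 86.0 CPM in naive and 158, 119, 138 and 138 CPM in allograft libraries (log2 fold change 1.49, SE 0.485, adjusted p = 0.341, and 2.26 without naive replicate 3).

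Among the 17 targets known in lymphocytes the median was 0.95, with 12 above and 5 below 0. It was 0.36 without naive replicate 2, which was the lowest library for 12 of the 17, and 1.15 without naive replicate 3. The smallest p there belonged to Ccnd1, cyclin D1, with 1.09, 67.4 and 12.1 CPM in naive and 4.63 to 10.5 CPM in allograft libraries (log2 fold change -2.43, adjusted p = 0.579, and 0.03 without naive replicate 2). The 21 other basic leucine zipper genes had a median of -0.14 (-0.28 and 0.17 on leaving out naive replicates 2 and 3), and Atf6, a factor of the unfolded protein response, lay at 21.1, 9.12 and 4.98 CPM in naive and at 32.0 to 37.8 CPM in allograft libraries (log2 fold change 1.42, adjusted p = 0.395). The 21 genes of the MAP kinase cascade had a median of 0.01 (-0.043 and 0.16), and Mapk9, the kinase JNK2, had a log2 fold change of -0.96 (adjusted p = 0.518) with overlapping groups. The 7 activators at the Fos and Jun promoters had a median of -0.36 (-0.034 and 0.54), and Srf, the serum response factor, had a log2 fold change of -0.96 (adjusted p = 0.735), with -0.31 without naive replicate 3.

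**Figure D4:**
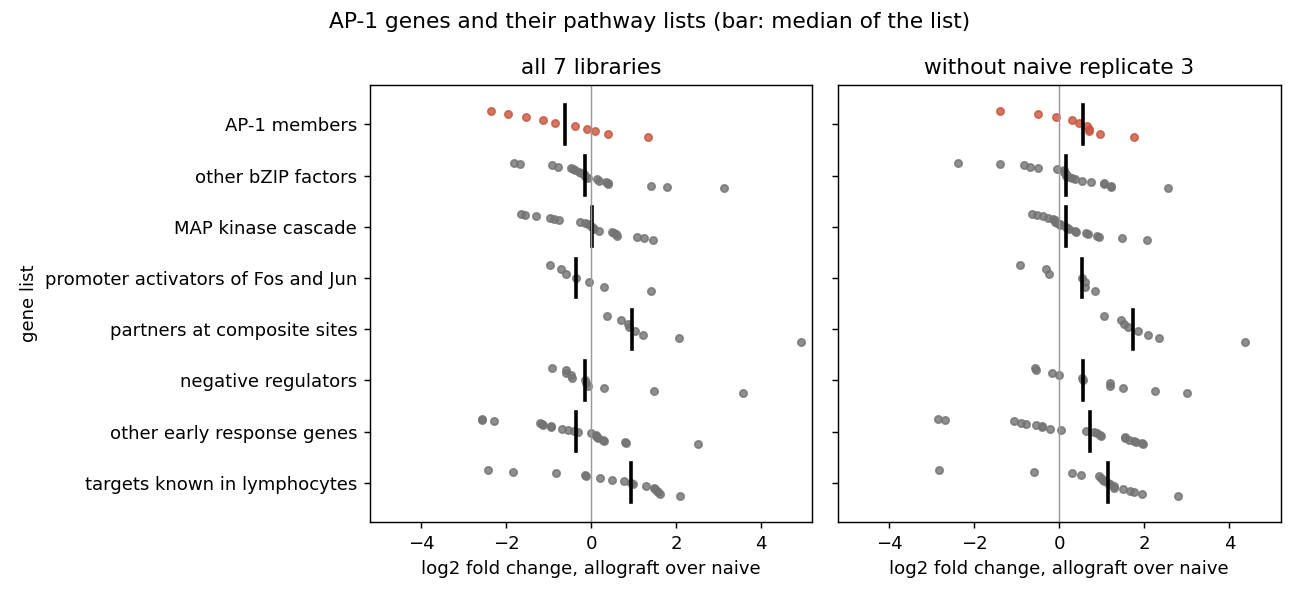
Fitted log2 fold change (allograft over naive) of each AP-1 gene (red) and each gene of 7 pathway lists (grey), 1 point per gene with a bar at the list's median, over all 7 libraries on the left and without naive replicate 3 on the right. The median of the AP-1 genes moves from -0.61 to 0.55 and that of the other early response genes from -0.36 to 0.73.

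The members fell into different patterns over the 7 libraries. Pearson's r of log2 CPM is given as a description over 7 libraries that share their depth and their cell mixture. It was 0.97 between Fosb and Maff, 0.95 between Fos and Jund and 0.88 between Fos and Atf3. It was -0.42 between Fos and Batf and -0.73 between Atf3 and Batf. In naive replicate 2 Batf had its lowest value of the 7 libraries (1.71 CPM) and Atf3 its highest (839 CPM). Across allograft replicates 1 to 4 both fell in the same order, Batf from 263 to 195 CPM and Atf3 from 315 to 211 CPM. Of 4938 genes with an average log2 CPM of at least 5, the closest to Fos were Chmp7 (r = 0.993), Galk2 (0.992) and Igsf5 (0.991), and the closest to Batf were Rpl13 (0.998), Runx1 (0.998) and Cxcl2 (0.996). Runx1 had 52.7, 2.40 and 53.6 CPM in naive and 72.1 to 85.2 CPM in allograft libraries, so it shared with Batf the low value in naive replicate 2.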

How the data were processed

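Bulk RNA of sorted heart ILC2s was compared between 3 naive and 4 allograft libraries, grouped and numbered by the sample titles. Per the labels' protocols, full-length cDNA was amplified with a single-cell kit. The submitters' processing notes name FastQC 0.11.5, STAR 2.5.3a, StringTie 1.3.1c, DESeq2 1.16.1 and mm10 without roles. Annotation and strand setting were not given in the sources used here. The authors deposited raw counts per gene and FPKM values. The FPKM values divided by CPM were constant per gene apart from 1 factor per library (7340 genes, log2 SD at most 0.0035), so both tables carry the same measurement. Overlapping genes cannot be told apart if strand was not used.

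Differences were tested with the edgeR 4.0.16 quasi-likelihood fit under R 4.3.3, using TMM and filterByExpr on all 7 libraries, no covariate, Benjamini-Hochberg adjustment at 0.05 over all genes tested. Alternatives used DESeq2 1.42.0 and limma 3.58.1 with a pseudocount of 1. The text names all 10 members, up to 3 called genes per list or else the gene with the smallest p, and the 3 genes most correlated with Fos and with Batf. Genes called only in an alternative, and the ratios between members, were chosen after their values were seen. The members and lists were chosen with earlier results of these data known. Cop1 was matched by identifier. Counting error is the only error that the floors cover, since reads carried no molecular identifiers. Gene positions are from GENCODE M21 (GRCm38) and start regions from RefSeq (GRCm38.p6).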

Additional observations from a re-analysis of the deposited data

How the results depend on the processing

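In each of 13 alternatives 0 of the 10 members passed the adjusted threshold. The number of all genes past it was 6, and 1224 with DESeq2, 76 with limma on log2(FPKM + 1), 0 with the replicate block, and 0 to 560 over the fits that each left out 1 library (107, 560 and 7 with naive replicates 1, 2 and 3 left out in turn, and 0 with any 1 allograft left out). Of the pathway genes, 0 passed, and 6 with DESeq2, 2 with limma and 0 to 5 when leaving out 1 library. These were Il10 and Ctla4 without naive replicate 1 (0.568% of all genes) and Batf3, Nfe2l2, Mef2c, Egr3 and Fasl without naive replicate 2 (3.10%), all higher. Each of them had its highest naive value in the library left out. Ctla4 was at 201, 0 and 0 CPM in naive replicates 1 to 3 and at 194 to 218 CPM in the allografts. Nfe2l2 and Mef2c in naive replicate 2 (120 and 18.6 CPM) lay above every allograft. The members with every allograft above every naive library were 1, and 1 to 5 when leaving out 1 library, with 2 without allograft replicate 2 (Fosl1 beside Batf) and 5 with naive replicate 3 left out (Batf, Jun, Junb, Jund, Maff). In TMM-scaled CPM the last count was 4. The members with every allograft below were 0, and 0 to 2 when leaving out 1 library, with Fos and Atf3 without naive replicate 1; in TMM-scaled CPM that count was 3. The range counts were not among the planned results, and their alternatives were added after seeing the data. The log2 fold change turned for Fosl2 to 0.17 with the replicate block and 0.42 with limma, and for Junb to 0.068 and 0.14. For Jun it turned to -0.095 with DESeq2 size factors and to -0.11 with the DESeq2 test. Leaving out 1 library at a time, it ran from -2.46 to 0.30 for Fosb, -0.60 to 0.69 for Fosl2, -0.78 to 0.64 for Junb and -2.90 to 0.95 for Maff, each lowest without naive replicate 2 and highest without naive replicate 3. It ran from -0.13 (without naive replicate 1) to 0.86 for Fosl1 and from -0.087 to 0.46 for Jun, which was below 0 when naive replicate 1 or 2 or allograft replicate 2 was left out. Fos, Jund, Batf and Atf3 kept their direction in all 13. The cause was not tested, apart from the left-out library itself. Without naive replicate 3 the naive mean FPKM moved from 15.6 to 1.47 for Maff and from 171 to 32.5 for Fosb. Same-numbered libraries showed no sign of deviating together (r of 0.02, -0.02 and 0.04, with 1 of 3 naive libraries correlating best with its own number). All naive and allograft libraries correlated this weakly (-0.087 to 0.076), so the check cannot exclude a pairing by number. Fosl1 rests on the lowest counts, 22 in naive replicate 1.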
